A study of Mus musculus with 8 samples.

Results

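The serum amyloid A genes Saa1, Saa2, Saa3 and Saa4, the orosomucoid genes Orm1, Orm2 and Orm3, and Lcn2, Hp and Serpina3n are acute-phase genes measured here in mouse liver by RNA-Seq. These 10 genes were chosen by symbol among the 25010 genes of the expression table, and all 10 reached the minimum for testing, a mean of 10 normalized counts, as did 15578 genes in all. The WT group was 2 livers of wild-type mice and the LXRDKO group was 2 livers of whole-body LXRα/β double-knockout mice, which lack both liver X receptors, LXRα from the gene Nr1h3 and LXRβ from the gene Nr1h2, throughout the body and not in hepatocytes alone. Mice of both groups had a C57BL/6 background, were 8 wk old, ate standard chow and had been fasted for 4 to 6 h, and RNA came from the left liver lobe, with no drug or inflammatory stimulus named for these animals. The labels also list ATAC-Seq libraries, which were not analysed here.

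The acute-phase response is the change in the plasma proteins made by the liver after infection or injury. Interleukin-6 acting through STAT3, interleukin-1 and tumor necrosis factor acting through NF-κB, and the C/EBP transcription factors drive hepatocytes to make more of the positive acute-phase proteins, and glucocorticoids enhance the response. LXRs are nuclear receptors activated by oxysterols that control cholesterol and fatty acid genes and are also known to restrain inflammatory genes in macrophages.

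Both deleted receptors were lower in the libraries labelled LXRDKO. Nr1h3 was at 5785 and 5322 normalized counts in WT and at 1712 and 1826 in LXRDKO (log2 fold change −1.65, adjusted P = 0.0147, limma), and Nr1h2 had the same adjusted P value with a log2 fold change of −1.66. A normalized count is the reads on a gene divided by a size factor for its library. Between 55772659 and 72842744 reads per liver fell on genes, and none of the 4 libraries was left out. The 8 genes on the hepatocyte marker list were detected in all libraries, summed between 6486585 and 7432504 normalized counts, and held no call by limma, while DESeq2 called Hnf4a, a hepatocyte transcription factor, higher (log2 fold change 0.60 by limma, with both LXRDKO values above WT). Each value below is for 1 liver, and in whole tissue fewer cells of a type cannot be told apart from less RNA per cell.

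Across the list, 7 of the 10 genes had both LXRDKO values above both WT values, and none had both below. Among all genes tested, 21.7% had both LXRDKO values above and 23.0% both below. Of the 10 genes, 1 passed an adjusted P value of 0.05 by limma, Orm2, against 0.321% of all genes tested (0.135% higher and 0.186% lower). At an unadjusted P value under 0.05, 6 of the 10 passed by limma, all of them higher, against 13.3% of all genes tested in either direction and 5.77% in that one. DESeq2, the test the study used, was run on reads recovered from the table and passed 5 of the 10, Saa4, Orm2, Lcn2, Hp and Serpina3n, all higher in LXRDKO, against 3.59% of its genes (1.56% higher and 2.03% lower). The edgeR quasi-likelihood test passed Orm2 alone, against 0.315% of genes tested (0.122% higher and 0.193% lower). The median log2 fold change was 0.98 over the 10 genes and −0.0046 over all genes tested. Since the genes were chosen with earlier results of these data known, these counts describe the list and are no test of it.

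**Figure D1:**
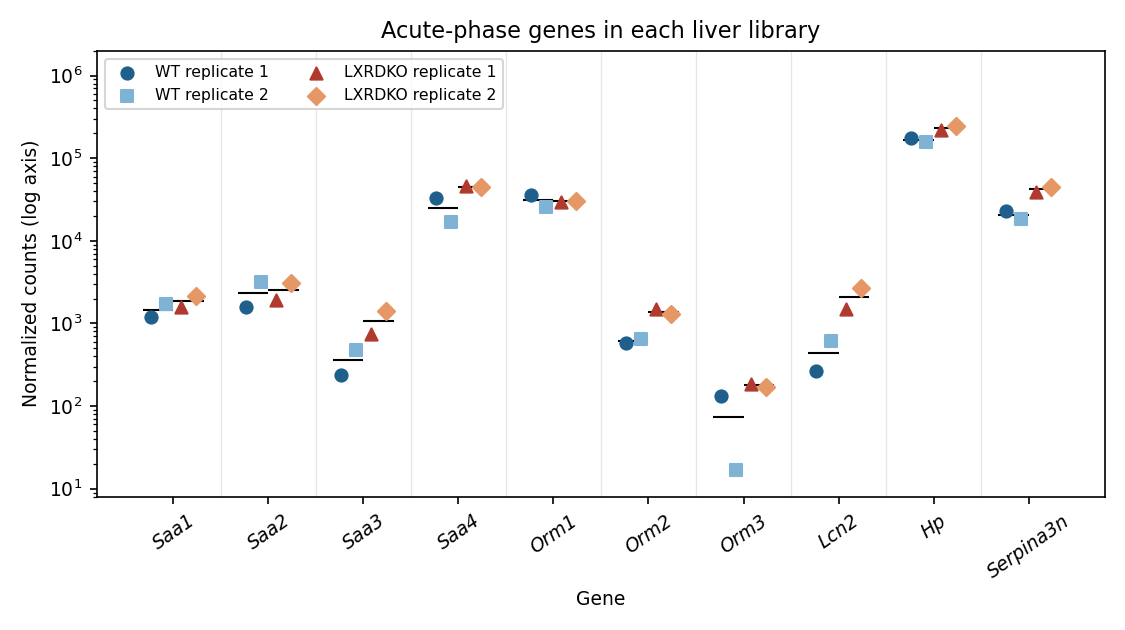
Normalized counts (log axis) of the 10 genes in each of the 4 liver libraries, with symbols for libraries and a black bar at the mean of the 2 livers of a genotype. Both LXRDKO symbols lie above both WT symbols for Saa3, Saa4, Orm2, Orm3, Lcn2, Hp and Serpina3n and overlap them for Saa1, Saa2 and Orm1.

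Levels of different genes are compared here only per length, as normalized counts per kb of merged exons. Hp was the most abundant at 103444 ± 6778 per kb in WT and 144281 ± 9553 in LXRDKO (SD, n = 2 each). Orm1 followed at 39860 ± 9655 and 38765 ± 730 per kb. Saa4, at 11975 ± 5407 in WT, and Serpina3n, at 10015 ± 1728, came next and did not differ beyond their spread, nor did they in LXRDKO, at 21487 ± 410 and 20400 ± 2278 per kb. The other 6 genes lay between 95.8 and 935 per kb in WT, with Saa2, Orm2 and Saa1 above Lcn2, Saa3 and Orm3. Within each of these WT trios the ranges of mean ± SD of neighbouring genes overlapped, narrowly so for Orm2 at 799 ± 64.3 and Saa1 at 591 ± 152 per kb. In LXRDKO the fifth place passed from Saa2 to Orm2, at 1794 ± 190 per kb. This order depends on the length used. The merged exons of Saa1 and Saa2 include unspliced transcript models, and over their longest protein-coding transcripts, of 609 and 652 bases, Saa2 and Saa1 took the fifth and sixth places in both genotypes, with Saa2 at 3613 ± 1712 and Saa1 at 2403 ± 617 per kb in WT.

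Together the 10 genes took 0.425% and 0.365% of all counted reads in WT, against 0.566% and 0.619% in LXRDKO. Hp alone made up between 64.3% and 70.1% of these reads.

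Among the serum amyloid A genes the inducible hepatocyte pair Saa1 and Saa2 overlapped between genotypes, while Saa3 and Saa4 did not. The family encodes apolipoproteins carried on high-density lipoprotein in plasma. All 4 genes lie within 42.3 kb of chromosome 7, from 46711998 to 46754313 of GRCm38. Any link between promoter likeness and expression was not tested. Upstream sequences are shown for Saa1 and Saa2, whose promoters are nearly the same, and for Saa3 of the same cluster, whose promoter differs. Each is the stretch from 250 to 61 bases before the RefSeq transcription start, on the strand of the gene in GRCm38.p6, at chr7:46743041-46743230 for Saa1 (minus strand), chr7:46751583-46751772 for Saa2 (plus strand) and chr7:46715737-46715926 for Saa3 (minus strand), and holds no GENCODE exon of its gene. Capitals mark matches to the C/EBP core TTNNGCAA on either strand.
Saa1: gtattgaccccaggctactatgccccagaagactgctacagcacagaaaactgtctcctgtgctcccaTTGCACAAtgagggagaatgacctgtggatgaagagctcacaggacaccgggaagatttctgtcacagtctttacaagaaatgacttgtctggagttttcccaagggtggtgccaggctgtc
Saa2: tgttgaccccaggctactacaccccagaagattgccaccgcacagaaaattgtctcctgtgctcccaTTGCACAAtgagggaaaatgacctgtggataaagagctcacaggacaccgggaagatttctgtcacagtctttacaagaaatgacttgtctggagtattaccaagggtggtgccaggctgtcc
Saa3: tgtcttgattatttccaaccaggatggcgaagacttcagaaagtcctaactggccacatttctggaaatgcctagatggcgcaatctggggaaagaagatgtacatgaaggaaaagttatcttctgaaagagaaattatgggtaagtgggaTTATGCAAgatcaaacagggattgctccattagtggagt

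Saa1, an acute-phase apolipoprotein of hepatocytes, was at 1198 and 1729 normalized counts in WT and at 1604 and 2171 in LXRDKO. The second WT liver was higher than the first LXRDKO liver, so the groups overlapped. Its log2 fold change was 0.37 (standard error 0.22, 95% interval −0.18 to 0.93, adjusted P = 0.553, limma), an interval that leaves room for a fall as well as for a rise. With 1 liver left out it ran from 0.11 without WT replicate 1 and 0.16 without LXRDKO replicate 2 to 0.59 without LXRDKO replicate 1 and 0.64 without WT replicate 2, and never passed limma's threshold.

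Saa2, its close paralog with the same role, was at 1566 and 3145 normalized counts in WT and at 1947 and 3111 in LXRDKO. The highest of the 4 values was that of a WT liver. The log2 fold change of Saa2 was 0.15 (standard error 0.37, 95% interval −0.77 to 1.07, adjusted P = 0.915, limma), and it turned to −0.35 without WT replicate 1 and to −0.19 without LXRDKO replicate 2, while it was 0.65 without WT replicate 2 and 0.49 without LXRDKO replicate 1. The ratio of Saa1 to Saa2 within a library does not depend on scaling between libraries, and it was 0.765 and 0.550 in WT and 0.824 and 0.698 in LXRDKO (exact permutation test, two-sided, P = 0.67).

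Saa3, which in mice is made largely by macrophages, adipocytes and other cells outside the hepatocyte, was at 238 and 475 normalized counts in WT and at 754 and 1402 in LXRDKO. The lower LXRDKO value was above the higher WT value. The log2 fold change of Saa3 was 1.61 (standard error 0.41, 95% interval 0.58 to 2.64), with an adjusted P value of 0.218 by limma and 0.200 by DESeq2, so that Saa3 passed neither test. Without WT replicate 2, which had the higher of the WT values, the log2 fold change was 2.10. It was 1.11 without WT replicate 1, 1.16 without LXRDKO replicate 2 and 2.05 without LXRDKO replicate 1.

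Marker genes of cell types that can express Saa3 were read from the same fit. Summed over the 10 genes of a Kupffer cell and macrophage list, normalized counts were 13582 and 15430 in WT, against 9763 and 6037 in LXRDKO. By limma 3 of the 10 fell, Clec4f, Cd5l and Marco. DESeq2 called 5 lower, these 3 with Vsig4 and Timd4, and none higher. The median log2 fold change of the list was −1.71. The list was not uniform, since 7 genes were lower and 3 higher, and the lysozyme gene Lyz2, a general marker of myeloid cells, had 1159 and 1363 normalized counts in WT, against 2289 and 1580 in LXRDKO (log2 fold change 0.60, adjusted P = 0.303, limma). The other higher genes, Cd68 and Csf1r, overlapped between genotypes, with log2 fold changes of 0.35 and 0.05. Of 5 adipocyte markers 4 were in the table and 2 were tested, neither of them called, with sums of 347 and 836 in WT and 178 and 855 in LXRDKO. The part of these cells in the Saa3 values was not tested.

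Saa4, the constitutively expressed member that also rides on high-density lipoprotein, was at 33081 and 17068 normalized counts in WT and at 45601 and 44387 in LXRDKO. The LXRDKO livers were close together and both above WT, where WT replicate 2 was the lowest. The log2 fold change of Saa4 was 0.92 (standard error 0.30, 95% interval 0.17 to 1.67), with an adjusted P value of 0.301 by limma and 0.0447 by DESeq2. Leaving out WT replicate 2 gave 0.44 and leaving out WT replicate 1 gave 1.40. Leaving out LXRDKO replicate 1 gave 0.90 and leaving out LXRDKO replicate 2 gave 0.94.

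The orosomucoid genes differed among themselves: Orm2 rose, Orm1 stayed within the WT range, and Orm3 rested on a single low WT liver. They encode α1-acid glycoproteins, plasma lipocalins that bind drugs and lipophilic molecules, and lie within 21.3 kb of chromosome 4, from 63344560 to 63365878. The upstream sequences of Orm2, which passed the test, and its neighbour Orm3 are shown for the same stretch before the RefSeq start, on the plus strand at chr4:63362199-63362388 and chr4:63355908-63356097, with the C/EBP match in capitals. No RefSeq promoter entry was matched for Orm1.
Orm2: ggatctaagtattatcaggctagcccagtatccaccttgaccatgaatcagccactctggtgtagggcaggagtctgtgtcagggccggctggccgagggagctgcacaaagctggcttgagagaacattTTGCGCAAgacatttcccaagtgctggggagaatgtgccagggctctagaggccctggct
Orm3: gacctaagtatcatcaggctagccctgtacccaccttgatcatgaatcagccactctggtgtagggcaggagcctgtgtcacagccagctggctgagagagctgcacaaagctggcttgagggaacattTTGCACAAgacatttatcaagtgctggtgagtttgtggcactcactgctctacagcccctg

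Orm2 was at 584 and 654 normalized counts in WT and at 1495 and 1286 in LXRDKO. Both genotypes were tight and well apart, with a mean of 619 ± 49.8 in WT and 1391 ± 148 in LXRDKO (SD, n = 2 each). The log2 fold change of Orm2 was 1.16 (standard error 0.13, 95% interval 0.84 to 1.49, adjusted P = 0.0498, limma), and by unadjusted P value it ranked 50 among all genes tested, the last of the 50 genes called. DESeq2 gave an adjusted P value of 2.1e-08 and edgeR 0.0493. Across settings this fold change lay between 1.06 and 1.27, while the limma call lay at its threshold. The call was lost with other scalings, pseudocounts and filters, without the trend and with the replicate number as a block. Adjusted P values there reached 0.219 (limma).

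Orm1, the main orosomucoid of mouse liver, was at 36183 and 25600 normalized counts in WT and at 29643 and 30443 in LXRDKO. Both LXRDKO values fell between the WT values. Its log2 fold change was −0.02 (standard error 0.18, 95% interval −0.46 to 0.42, adjusted P = 0.978, limma). This interval leaves room for a difference in either direction, and it is no limit of detection, which was not computed.

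The makeup of the orosomucoid reads differed in its minor part. Orm1 took 98.1% and 97.4% of the normalized orosomucoid counts in WT and 94.6% and 95.4% in LXRDKO, and Orm2 took 1.58% and 2.49% in WT and 4.77% and 4.03% in LXRDKO. There were 62.0 and 39.1 Orm1 counts per Orm2 count in WT and 19.8 and 23.7 in LXRDKO, without overlap (exact permutation test, two-sided, P = 0.33, the smallest that 2 livers against 2 can give). Orm1 and Orm2 have 775 merged exon bases each, so that this ratio also compares them per length.

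Orm3 was at 131 and 17.0 normalized counts in WT and at 186 and 173 in LXRDKO. Only WT replicate 2, with 20 reads, lay far from the rest. The log2 fold change of 1.89 had the widest interval of the 10 genes, −0.31 to 4.08 (standard error 0.88, adjusted P = 0.436, limma), and fell to 0.45 without that liver. It was 3.33 without WT replicate 1, where the low liver alone stood for WT. With all livers, the log2 fold change of Orm3 was smaller by DESeq2, at 1.28 (adjusted P = 0.934), and by edgeR, at 1.32 (adjusted P = 0.563).

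Reads of 50 bases cannot always be assigned to 1 gene of these families, and the counting tool and its treatment of shared reads are not given in the sources used here. Of all 50-base windows in the protein-coding transcripts, 20.4% of those of Orm1 also occur in another gene, chiefly Orm2, and 22.7% of those of Orm2, chiefly in Orm1. The share was 14.8% for Saa1 and 11.8% for Saa2, which share windows with each other, 6.90% for Serpina3n, and between 0 and 4.23% for the other 5 genes, with none for Lcn2 and Hp. How far shared reads contribute to any value was not tested.

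**Figure D2:**
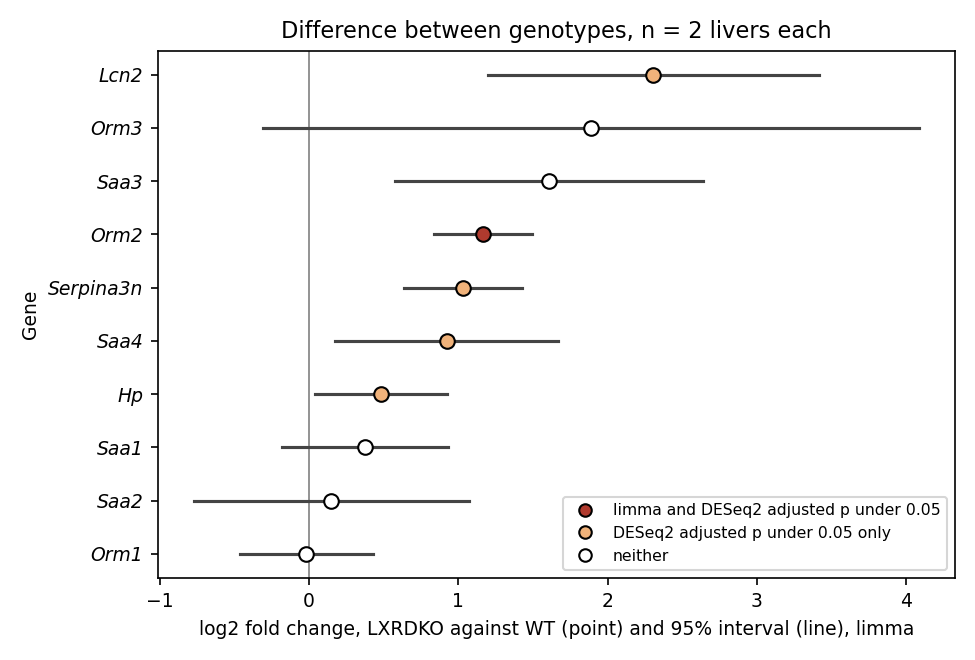
Log2 fold change of LXRDKO against WT for each gene (point) with its 95% interval (line) from limma, 2 livers a group; fill shows which tests passed an adjusted P value of 0.05. Orm2 has a narrow interval around 1.16 and passes both tests, Lcn2 has the largest fold change at 2.31, and the intervals of Saa1, Saa2, Orm1 and Orm3 include 0.

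Lcn2 had the largest fold change of the 10 genes. It encodes lipocalin-2, which binds bacterial siderophores and so withholds iron, and is made by hepatocytes in the acute phase as well as by neutrophils and injured epithelia. Lcn2 was at 265 and 609 normalized counts in WT and at 1490 and 2664 in LXRDKO, with no overlap between genotypes. The log2 fold change was 2.31 (standard error 0.45, 95% interval 1.20 to 3.42), with an adjusted P value of 0.134 by limma and 0.0385 by DESeq2. Without WT replicate 2 it was 2.91. With each of the other livers left out it lay between 1.71 and 2.73.

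Most neutrophil markers were near the detection limit in all livers. Of the 11 neutrophil genes in the table, 9 had at most 10 reads in every library, and the sums were 107 and 139 normalized counts in WT, against 155 and 114 in LXRDKO, overlapping between genotypes. Most of each sum was Csf3r, with between 66 and 125 reads, while Mpo, Elane, Ly6g and S100a8 had at most 6 reads in any library. The 5 biliary epithelial markers Krt19, Krt7, Sox9, Epcam and Spp1 were all higher in both LXRDKO livers, against 21.7% of all genes tested. They summed to 2077 and 3582 in WT and 4553 and 5409 in LXRDKO, with a median log2 fold change of 0.84. Limma called none of them (3 at an unadjusted P value under 0.05), and DESeq2 called Epcam. Whether biliary cells contribute to the Lcn2 values was not tested.

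Hp encodes haptoglobin, the plasma protein that captures free hemoglobin. It was at 173828 and 158434 normalized counts in WT and at 220866 and 242564 in LXRDKO. The LXRDKO livers were above the WT livers, with a log2 fold change of 0.48 (standard error 0.18, 95% interval 0.04 to 0.92). The adjusted P value was 0.344 by limma, 0.278 by edgeR and 0.0160 by DESeq2, so that Hp was called by DESeq2 alone. With 1 liver left out the log2 fold change lay between 0.41 and 0.55.

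Serpina3n encodes an α1-antichymotrypsin-like inhibitor of serine proteases and lies on chromosome 12 from 104406729 to 104414329. It was at 23193 and 18150 normalized counts in WT and at 38780 and 45430 in LXRDKO. Both LXRDKO livers were well above WT, and the log2 fold change was 1.03 (standard error 0.16, 95% interval 0.64 to 1.43), close to that of Orm2. The adjusted P value was 0.0969 by limma and 7.2e-07 by DESeq2. With 1 liver left out the log2 fold change lay between 0.86 and 1.21. The sequence from 250 to 61 bases before its RefSeq start, at chr12:104406458-104406647 on the plus strand, is shown because Serpina3n was the only 1 of the 8 genes with a promoter entry that held a match to the glucocorticoid response element, searched as GNACA and TGTNC with 3 bases between them and shown in capitals.
Serpina3n: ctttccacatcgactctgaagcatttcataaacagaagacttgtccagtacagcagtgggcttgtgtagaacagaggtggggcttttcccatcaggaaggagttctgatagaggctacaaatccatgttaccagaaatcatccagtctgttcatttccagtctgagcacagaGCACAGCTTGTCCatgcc

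The promoter windows can be set beside all promoters of the same length. RefSeq entries were matched for 8 of the 10 genes, all but Hp and Orm1, and the 250 bases before each start were searched on both strands. The C/EBP core TTNNGCAA occurred in 7 of the 8, all but Serpina3n, and in 9.56% of 32851 promoters. The Lcn2 window differs from the rest, as 139 of its 190 bases farthest from the start lie in an exon of another Lcn2 transcript in GENCODE. These matches lay between 245 and 45 bases before the start, and the motif was present in Saa1 and Saa2, whose groups overlapped, as well as in Orm2. The windows of Saa1 and Saa2 were identical at 94.8% of aligned positions and those of Orm2 and Orm3 at 85.9%, so that the 7 genes are not 7 independent sequences.

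The other motifs were rarer in these windows. The glucocorticoid response element occurred in 0.387% of all promoters, and the TATA box TATAAA in 12.4% and, among the 8, in Orm2 and Orm3. None of the 8 windows held the NF-κB letters GGGA and TTCC with 2 bases between them, found in 1.21% of all promoters, the STAT letters TTCNNNGAA in 7.02%, the acute-phase element CTGGGAA in 9.10%, or the direct repeat that LXRs bind, AGGTCA and AGGTCA with 4 bases between them, in 0.0152%. A missing match says only that these letters do not occur in this window.

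The 2 livers of a genotype differed more for the acute-phase genes than for most genes, mainly in WT. The median absolute log2 difference between the WT livers was 0.74 over the 10 genes and 0.18 over all genes tested. Between the LXRDKO livers it was 0.22 over the 10 genes and 0.17 over all genes.

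The genes went separate ways in this spread. Saa1, Saa2, Saa3 and Lcn2 were higher in replicate 2 than in replicate 1 in both genotypes, by 0.53, 1.01, 0.99 and 1.20 on the log2 scale in WT and by 0.44, 0.68, 0.89 and 0.84 in LXRDKO. The labels name no pairing of the mice by replicate number, and this shared direction is no comparison of the genotypes. Whether livers of the same number shared a condition was not tested. Saa4, Orm1, Orm3, Hp and Serpina3n were instead lower in WT replicate 2, with log2 differences between −0.13 for Hp and −2.88 for Orm3.

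**Figure D3:**
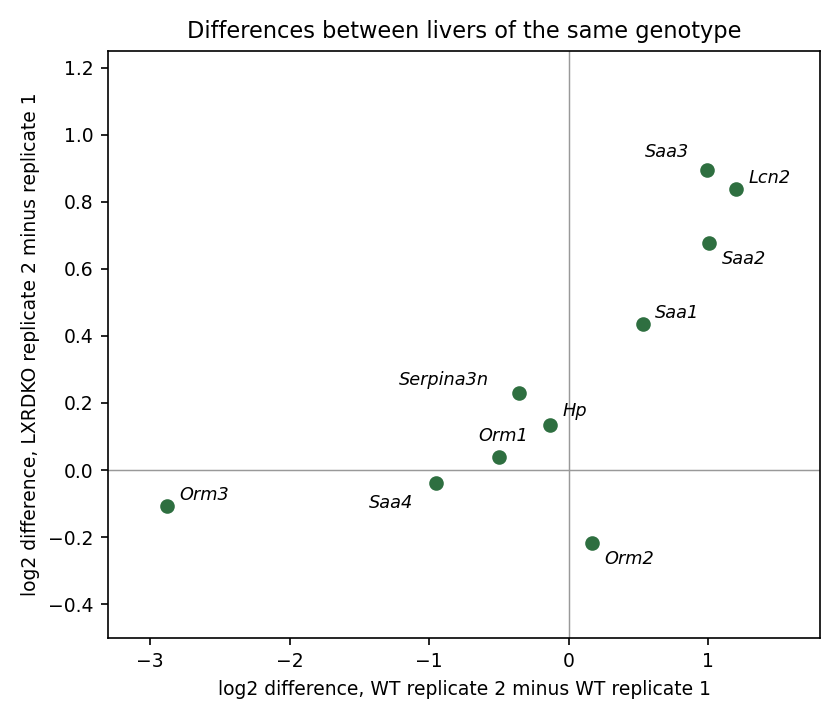
Log2 difference between the 2 livers of a genotype for each of the 10 genes, in WT on the horizontal axis and in LXRDKO on the vertical axis. Saa1, Saa2, Saa3 and Lcn2 lie in the upper right, and Orm3 lies at −2.88 on the WT axis.

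Other genes of the response were taken from lists. Of 24 further positive acute-phase genes, among them those of C-reactive protein, the fibrinogen chains, hemopexin and complement C3, none passed by limma (4 at an unadjusted P value under 0.05) and 1 by DESeq2, 12 were higher and 12 lower, and the median log2 fold change was 0.0043. Those with the lowest P values went in opposite directions. Apcs, which encodes serum amyloid P, a major mouse acute-phase protein, had 3863 and 3927 normalized counts in WT, against 2362 and 2925 in LXRDKO (log2 fold change −0.57, adjusted P = 0.161, limma), and DESeq2 called it lower. Mt1, encoding the metal-binding protein metallothionein 1, had 8009 and 7238 in WT and 36921 and 14013 in LXRDKO (log2 fold change 1.58, adjusted P = 0.232, limma).

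Of 10 negative acute-phase genes, which fall during the response, none passed by limma (2 at an unadjusted P value under 0.05), 5 were higher and 5 lower. Serpina6, encoding the corticosteroid-binding globulin of plasma, had 14804 and 24235 normalized counts in WT, against 10910 and 9083 in LXRDKO (log2 fold change −0.93, adjusted P = 0.218 by limma and 0.0023 by DESeq2). Fetub, encoding fetuin-B, had a log2 fold change of 0.32 (adjusted P = 0.341, limma). The list's median was 0.09.

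The cytokines that drive the response were scarce. Of 8 listed cytokine genes 7 were in the table and 4 were tested, with none called by limma (2 at an unadjusted P value under 0.05). Il6, which encodes interleukin-6, had 3.4 normalized counts in WT replicate 1 and 0 in the other libraries, where a count of 0 allows up to 3 reads. Il1a, encoding interleukin-1α, had 127 and 188 normalized counts in WT, against 75.9 and 53.6 in LXRDKO, and Lif, encoding leukemia inhibitory factor, had 1.1 and 6.8 in WT and 35.1 and 96.5 in LXRDKO. Their adjusted P values were 0.205 and 0.152 by limma, and DESeq2 called Il1a lower and Lif higher.

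Receptors and signal genes held no limma call either, with 9 receptor genes and 19 signal genes tested, of which 3 and 4 had an unadjusted P value under 0.05. The interleukin-1 receptor gene Il1r1 had 3247 and 2298 normalized counts in WT, against 4077 and 4423 in LXRDKO (log2 fold change 0.64, adjusted P = 0.234, limma). Il6ra, encoding the interleukin-6 receptor, had a log2 fold change of 0.76 (adjusted P = 0.276, limma). Among signal genes, Cebpd, which encodes the acute-phase factor C/EBPδ, had 808 and 570 normalized counts in WT, against 1049 and 1300 in LXRDKO (log2 fold change 0.78, adjusted P = 0.218, limma), and Jak2, a kinase of cytokine receptors, had a log2 fold change of −0.40 (adjusted P = 0.248, limma). DESeq2 called Il1r1 and Cebpd, both higher, and no other gene of these lists.

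One of 18 receptors and partners of the proteins passed by limma, Cd163, the macrophage receptor that takes up haptoglobin-hemoglobin complexes. Cd163 was at 939 and 524 normalized counts in WT and at 27.5 and 19.3 in LXRDKO, and fell by 4.87 on the log2 scale (adjusted P = 0.0239, limma). Hp and its receptor thus differed in opposite directions, with Hp passing only DESeq2. Beside this stand the values of the Kupffer cell and macrophage list given above, with 7 genes lower and 3 higher, and their part in the Cd163 values was not tested.

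Of the 7 tested genes of the Serpina3 cluster other than Serpina3n, none passed by limma (3 at an unadjusted P value under 0.05), with 3 higher and 4 lower. Serpina3m had 7827 and 6906 normalized counts in WT, against 12601 and 13593 in LXRDKO (log2 fold change 0.83, adjusted P = 0.0615 by limma and 8.95e-07 by DESeq2), and Serpina3f had a log2 fold change of −1.11 (adjusted P = 0.249, limma). Of 10 genes of the glucocorticoid receptor and its induced genes, 8 were higher, but only 4 of these without overlap between genotypes. By limma 3 of the 10 had an unadjusted P value under 0.05, and the list's median log2 fold change was 0.28. Fkbp5, encoding a chaperone that restrains the receptor, rose from 6870 and 6116 to 19131 and 16133 (log2 fold change 1.44, adjusted P = 0.0257, limma). DESeq2 called Zbtb16 and Tat as well. The receptor gene Nr3c1 had a log2 fold change of −0.18 (adjusted P = 0.591, limma).

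**Figure D4:**
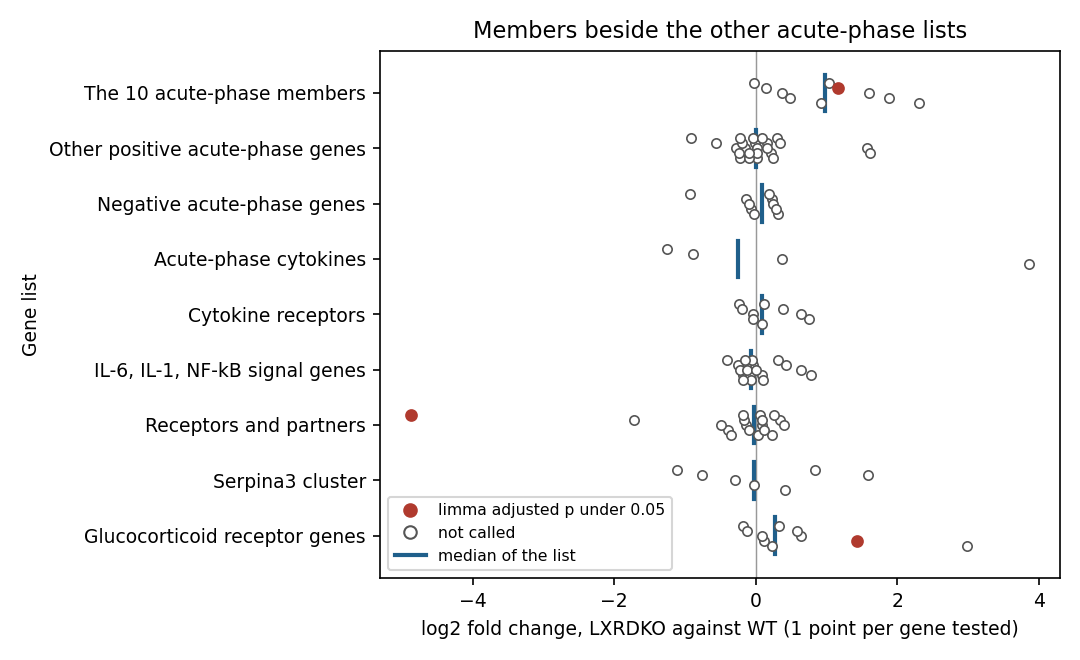
Log2 fold change of LXRDKO against WT for each tested gene of the 10 and of the 8 other lists, with filled points for an adjusted limma P value under 0.05 and a blue line at each list's median. The median is 0.98 for the 10 genes and between −0.26 and 0.28 for the other lists shown, and Cd163 lies farthest to the left at −4.87. The cell type marker lists are not shown, and their medians ran from −1.71 to 0.84.

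Other cell type markers gave 1 further limma call. The endothelial gene Kdr was called lower in LXRDKO, and the 5 endothelial genes summed to 9182 and 8186 normalized counts in WT, against 6901 and 5277 in LXRDKO. Of these 5 genes 4 were lower, 3 of them without overlap between genotypes, and 1 was higher. All 5 stellate cell genes were higher, but only 3 of them without overlap between genotypes. Their sums were 10128 and 11271 in WT and 14725 and 17021 in LXRDKO. Limma called none, while DESeq2 called Reln and Dcn higher. Monocyte genes summed to 260 and 424 in WT and 377 and 467 in LXRDKO, with 3 tested and none called. All 3 were higher in LXRDKO, 2 of them without overlap between genotypes, and their median log2 fold change was 0.67.

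The genes whose pattern over the 4 livers was most like that of the acute-phase genes were found by root mean square distance between centred log2 profiles among the 11401 genes whose mean reached 100 normalized counts. Nearest to the mean profile of Saa1 and Saa2 were Cda, Hes1, Smoc2, Ctps2 and Gar1, at distances from 0.049 to 0.063. Nearest to the mean profile of all 10 were Polk, Arid3a, Ppp3cc, Abtb2 and Efemp1, at distances from 0.063 to 0.076, with log2 fold changes between 0.85 and 1.10 and none called by limma. Among the 10 themselves, Serpina3n lay closest to the mean profile, at 0.097, and Orm3 farthest, at 1.09. With 4 livers such a likeness is a description of these libraries.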

How the data were processed

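RNA-Seq was analysed for 4 mouse livers, 2 WT and 2 LXRDKO, with 1 library each. Per the labels and the methods of the study, polyadenylated RNA was captured with a KAPA Stranded kit, sequenced as single-end reads of 50 bases, checked with FastQC and aligned to mm10 with STAR 2.6.0c. The tool that counted reads and its annotation are not given in the sources used here. The deposited signal values are normalized counts, which the authors made by dividing read counts by a DESeq2 size factor per library. All values (100%) passed as whole multiples of 1 read, and reads were recovered by rounding. The tolerance was 0.01 of a read at low counts and grew with the count. For the most abundant genes it was too wide to be a check. Every column of the table was matched to a sample.

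Values were compared as log2(normalized count + 1) by limma 3.58.1 in R 4.3.3, with a mean-variance trend, where the mean reached 10 normalized counts. Benjamini-Hochberg adjustment ran over all genes tested, at a threshold of 0.05. The added 1 makes fold changes of genes with low counts smaller than they would be without it. They can still exceed those of the count models, as for Orm3. The recovered reads were tested with DESeq2 1.42.0 and edgeR 4.0.16, and the fits were tested on simulated data. The number of livers, 2 a group, limits precision, and the floor of 3 reads covers counting error only.

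Replicate numbers come from sample titles. The labels name no pairing of the mice by these numbers. The correlation of replicate deviations between genotypes was 0.0031 across genes tested. A single correlation over all genes cannot show whether some genes share a factor by replicate number. Gene positions and lengths came from GENCODE M21 (GRCm38) and promoter sequences from RefSeq (GRCm38.p6). The genes and lists were chosen with earlier results of these data known. Genes named are the 10, Nr1h3 and Nr1h2, from each list up to 3 called genes and Cd163 or, without a call, the 2 of lowest P, and the 5 nearest to each of the mean profiles. Marker genes are given as sums and counts. Those named one by one, and Il6, Nr3c1, Zbtb16 and Tat, fall outside this rule and were chosen after their values were seen. Alternatives were other scalings, pseudocounts, filters, moderation, tests, thresholds and lengths, the replicate number as a block, and each liver left out.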

Additional observations from a re-analysis of the deposited data

How the results depend on the processing

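Of the 10 genes, 0 were called with upper-quartile scaling, library-total scaling, a pseudocount of 0.5 or 8, no filter, a minimum mean of 50, or no trend, 5 with DESeq2, 2 at a threshold of 0.10, and from 0 to 4 with 1 liver left out. The fits without LXRDKO replicate 1 or 2 called 0, the fit without WT replicate 1 called 4 and the fit without WT replicate 2 called 3. Over all genes, the 50 calls became 25 with a minimum mean of 50, 1 without the trend, 567 with DESeq2, 138 at a threshold of 0.10 and from 2 to 262 with 1 liver left out. The lists other than markers held 2 calls, 0 without the trend, 11 with DESeq2 and from 0 to 9 with 1 liver left out. With the replicate number as a block, 90 genes and 2 of the 10, Saa3 and Lcn2, were called, but the labels name no pairing by these numbers. Directions turned for Saa2, to −0.35 without WT replicate 1 and −0.19 without LXRDKO replicate 2, and for Orm1, to 0.036 with library-total scaling and 0.00038 without LXRDKO replicate 1, with a range from −0.27 to 0.23 over the livers left out. The other 8 genes kept their sign in all 15 alternatives, and the median log2 fold change of the 10 lay between 0.65 and 1.10. The cause of these changes was not tested. Levels per kb over the longest transcript moved for Lcn2 and Hp. Over the longest protein-coding transcript, a length chosen after seeing the data, levels moved for Saa1, Saa2, Lcn2 and Hp. Robust moderation and edgeR called 1 of the 10. With 2 livers a group, the number of livers limits what could be detected.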
